A study of Arabidopsis thaliana with 33 samples.

Results

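RNA of seedlings mutated in 3 methyl-CpG-binding-domain genes was compared with RNA of wild-type seedlings of *Arabidopsis thaliana*. The mbd124 group held 3 samples of mbd1/2/4 triple mutants, and the WT group held 3 samples of the wild type Col-0. These are 6 of the 33 samples in the series, which also covers other mutants (hhp1, sant1234-null and hda6) and acetylated histone H3 (H3ac). All plants of both groups were untreated, grew on half-strength MS plates in long days (days of 16 h at 24 °C, nights of 8 h at 22 °C) and were 12 days old at harvest. The labels do not name the mutant alleles, so the lesion in each gene is not known here. The series' design describes the replicates of each genotype as independent. The authors' table nevertheless gives 1 FPKM value per gene and genotype (a fragment count scaled by transcript length and library size), so no value below carries a spread between samples, and the depth of the libraries is unknown. Of 32823 genes listed, 21031 (64.1%) were marked as tested, and all of these form the comparison. The question is which genes, pathways and families differ in RNA level when MBD1, MBD2 and MBD4 are mutated, at which wild-type levels and where on the chromosomes.

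Proteins with a methyl-CpG-binding domain (MBD) are best known in animals for reading methylated cytosine and for recruiting histone deacetylases, which remove acetyl groups that accompany active genes. Plants have a family of such proteins, and only some members bind methylated DNA. The series title places the histone deacetylase HDA6 in a complex with a protein derived from a Harbinger transposase. A seedling is a mixture of tissues, so in these bulk RNA samples fewer cells of a type and less RNA per cell cannot be told apart.

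The 3 mutated loci were low in the mutant. MBD1 (AT4G22745) had 0.0476 FPKM in mbd124 and 15.5 FPKM in WT. MBD4 (AT3G63030) had 0.208 FPKM in mbd124 and 21.8 FPKM in WT. Neither passed the authors' test: in the authors' deposited table the adjusted p (Cuffdiff) was 0.619 for MBD1 and 0.177 for MBD4. The standard errors derived from that test were large, 7.27 for the log2 change of -8.35 of MBD1 and 3.10 for that of -6.71 of MBD4. MBD2 (AT5G35330) fell to 6.45 FPKM in mbd124, against 17.5 FPKM in WT, a log2 change of -1.44, and was the only called locus of the 3. The values at these loci follow the label of the group. They also show that a very large fold near 0 FPKM can miss the authors' test.

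At an adjusted p under 0.05, 2370 of the 21031 tested genes were called (11.3%). Of these, 1020 were higher in mbd124 (4.85% of tested genes) and 1350 were lower (6.42%). The median log2 change was 0.77 among genes that rose and -0.79 among genes that fell, and 0.01 over all tested genes. A change of at least 2-fold was found for 307 genes that rose and 419 that fell (3.45% of tested genes in both directions together). At an unadjusted p under 0.05 the count was 4271. The smallest absolute log2 change called was 0.41, so smaller changes were not detectable here. The smallest adjusted p, 0.000861 in the authors' deposited table, was shared by 1222 called genes, and every gene described below as risen, fallen or called without an adjusted p beside it has this value, except members of runs of neighbours, some of which lie between it and 0.05. Summed over the genes that rose, the level was 32899 FPKM in mbd124 and 19338 FPKM in WT. Over the genes that fell it was 56009 FPKM in mbd124 and 101233 FPKM in WT. The genes that fell thus carried more of the RNA than the genes that rose. Standard errors (SE) of log2 changes were derived from the authors' p-values and had a median of 0.16 among called genes.

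**Figure D1:**
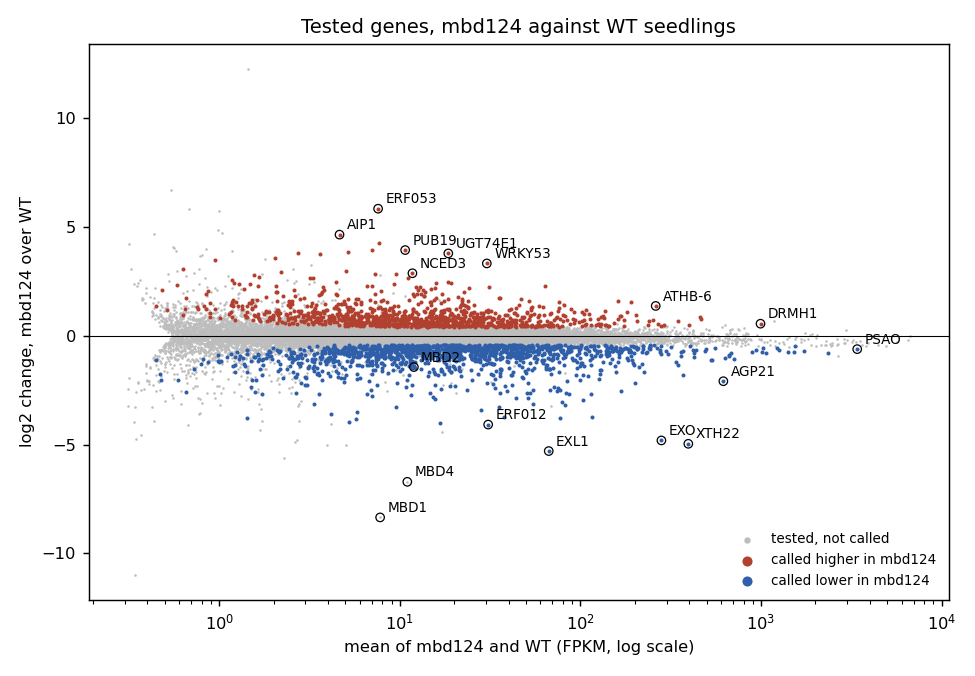
Each point is a tested gene listed above 0 FPKM in both genotypes, with the mean of its mbd124 and WT values on the x axis (FPKM, log scale) and the log2 change of mbd124 over WT on the y axis. Red points were called higher and blue points lower at an adjusted p under 0.05, and grey points were not called. EXL1, XTH22 and EXO lie lowest among called genes, ERF053 lies highest, and MBD1 and MBD4 lie below all of them without being called.

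Genes of the growing cell wall were among the deepest falls. EXORDIUM proteins are secreted proteins linked to leaf growth and brassinosteroid response, and 4 of 7 tested members fell while none rose. EXL1 had 3.31 FPKM in mbd124 and 130.3 FPKM in WT, the largest fall of any called gene (log2 change -5.30, SE 0.19). EXO, the founding member, had 19.3 FPKM in mbd124 and 542 FPKM in WT (-4.81, SE 0.16). EXL5 (-3.20) and EXL3 (-1.46) fell as well, whereas EXL2, EXL4 and EXL7 had log2 changes of -0.27, 0.20 and 0.07 and were not called. Xyloglucan endotransglucosylases (XTH) cut and rejoin the xyloglucan that ties cellulose fibres together. None of the 30 tested XTH genes rose and 8 fell (1 and 11 at an unadjusted p under 0.05). XTH22, first described as the touch-induced gene TCH4, had 24.6 FPKM in mbd124 and 767 FPKM in WT (-4.97, SE 0.17). XTH9, with 164 FPKM in mbd124 and 573 FPKM in WT, and XTH27, with 46.6 FPKM in mbd124 and 161 FPKM in WT, both fell by 1.8 on the log2 scale. All 3 were well expressed in WT.

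The stretches of 250 bases that end just before the starts of the 3 deepest falls, read from RefSeq (build TAIR10.1), are printed here because the same motif is compared below with genes that rose. Capitals mark matches to the W-box TTGACC or its variant TTGACT, read on either strand.
EXL1 (chr1:12851733-12851982, plus strand): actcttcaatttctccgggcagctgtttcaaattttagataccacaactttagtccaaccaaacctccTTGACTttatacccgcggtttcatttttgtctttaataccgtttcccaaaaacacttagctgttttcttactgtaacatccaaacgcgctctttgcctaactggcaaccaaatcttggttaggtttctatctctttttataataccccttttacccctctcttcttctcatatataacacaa
XTH22 (chr5:23308681-23308930, minus strand): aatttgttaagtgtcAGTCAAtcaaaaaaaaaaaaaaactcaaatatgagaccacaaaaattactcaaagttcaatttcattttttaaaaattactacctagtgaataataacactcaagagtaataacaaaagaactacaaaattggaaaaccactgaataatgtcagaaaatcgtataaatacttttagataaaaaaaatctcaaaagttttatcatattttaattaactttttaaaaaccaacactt
EXO (chr4:5739969-5740218, plus strand): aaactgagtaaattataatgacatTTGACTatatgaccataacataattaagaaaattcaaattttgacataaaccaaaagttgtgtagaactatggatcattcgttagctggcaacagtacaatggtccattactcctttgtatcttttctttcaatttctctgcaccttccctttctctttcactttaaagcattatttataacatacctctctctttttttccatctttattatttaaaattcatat
Each of these stretches held 1 match, and in all of them it was the variant, more than 100 bases before the start.

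Arabinogalactan proteins, heavily glycosylated proteins of the cell surface, showed the highest share of falls among the families with at least 20 tested members in the chart of families: 17 of 44 fell (38.6%) and 1 rose. AGP21 had 235 FPKM in mbd124 and 1002 FPKM in WT (log2 change -2.09, SE 0.17). AGP17 had 6.60 FPKM in mbd124 and 64.6 FPKM in WT (-3.29, SE 0.18). The fasciclin-like FLA9 had 106 FPKM in mbd124 and 342 FPKM in WT (-1.69, SE 0.16). AGP5 was the member that rose, with 7.23 FPKM in mbd124 and 2.92 FPKM in WT. Summed over the 44 genes, the level was 2941 FPKM in mbd124 and 5289 FPKM in WT. Cellulose synthases and their relatives, which make cellulose and other wall polysaccharides, had 10 falls and no rise among 35 tested members (10 and 0 at an unadjusted p under 0.05). CSLC4, a xyloglucan backbone synthase, had 34.2 FPKM in mbd124 and 78.8 FPKM in WT. The leucine-rich repeat extensin LRX3 fell to 23.4 FPKM in mbd124, against 182 FPKM in WT. RALF peptides, signals that bind wall receptors and LRX proteins, had 4 falls among 10 tested members and no rise (1 higher at an unadjusted p under 0.05). Expansins, which loosen walls without cutting them, went both ways, with 4 of 25 higher and 3 lower.

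Auxin-induced growth genes had more rises than falls. SAUR genes are short auxin-induced genes, and SAUR19 to SAUR24 are known to promote cell expansion by holding plasma membrane proton pumps active. Of 68 tested SAUR genes, 27 rose (39.7%) and 9 fell (13.2%), beside 4.85% and 6.42% of all tested genes. SAUR22 had 16.8 FPKM in mbd124 and 2.35 FPKM in WT (log2 change 2.83, SE 0.29). SAUR20 had 19.1 FPKM in mbd124 and 3.07 FPKM in WT (2.64, SE 0.29). SAUR78 went the opposite way and was the member with the highest level among those that fell, with 21.5 FPKM in mbd124 and 127 FPKM in WT (-2.56, SE 0.15). The SAUR genes AT5G27780 and AT4G13790 were called and listed at 0 in WT, with 0.806 and 0.564 FPKM in mbd124. SAUR genes are short and similar in sequence, and the counting of reads shared between copies is not stated, so the split among neighbouring copies is uncertain. PRE proteins are small helix-loop-helix factors that free growth regulators from their inhibitors. Among 6 tested PRE genes 3 rose and none fell. PRE1 had 9.62 FPKM in mbd124 and 0.673 FPKM in WT (3.84, SE 0.42), PRE6 had a log2 change of 1.57, and PRE5 one of 2.93 with an adjusted p of 0.00307 in the authors' deposited table (Cuffdiff).

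Aux/IAA repressors, which are made in response to auxin and block it, were split, with 4 of 30 higher and 4 lower. IAA29, induced in shade, had 20.2 FPKM in mbd124 and 4.26 FPKM in WT (log2 change 2.24). SHY2, also known as IAA3, fell to 26.7 FPKM in mbd124, against 51.8 FPKM in WT. None of the 19 tested ARF factors, the activators and repressors that Aux/IAA proteins bind, was called by Cuffdiff (1 higher and 2 lower at an unadjusted p under 0.05). Brassinosteroids are growth steroids whose signal induces EXO and XTH22 in wild-type plants. None of the 9 tested genes of brassinosteroid synthesis and breakdown and none of the 7 signalling genes was called by Cuffdiff (1 higher and 0 lower, and 0 higher and 1 lower, at an unadjusted p under 0.05).

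**Figure D2:**
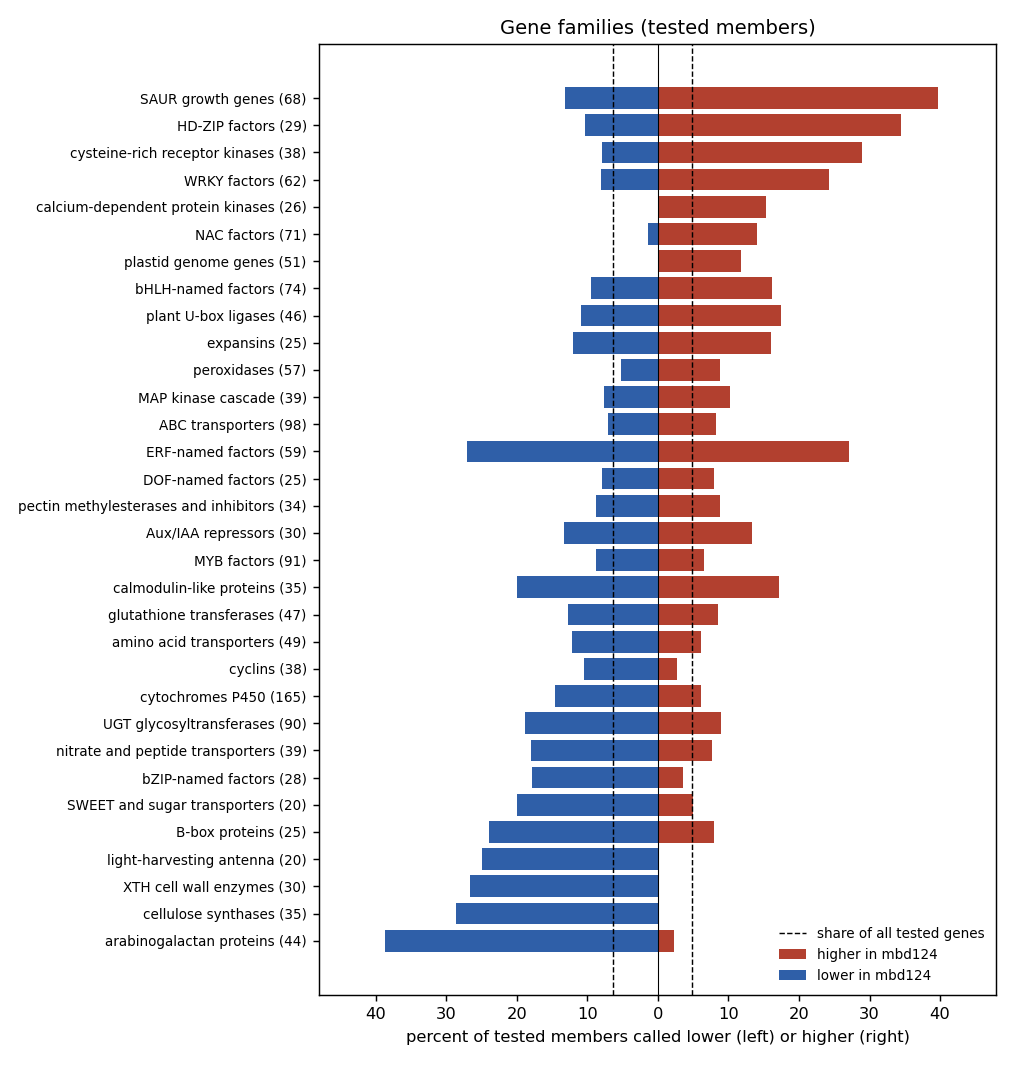
Horizontal bars give the percent of tested members of each gene family called higher (right, red) or lower (left, blue) in mbd124, with the number of tested members in brackets. Families with at least 20 tested and 4 called members are shown, and dashed lines mark the shares over all tested genes (4.85% higher, 6.42% lower). SAUR genes and HD-ZIP factors have the highest shares of rises, arabinogalactan proteins have the highest share of falls, and ERF-named factors have 27.1% in each direction.

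Abscisic acid is the hormone of water deficit. Its signal runs from PYL receptors through clade A protein phosphatases (PP2C), which hold the pathway off, to kinases and transcription factors. Of 7 tested clade A PP2C genes 4 rose and none fell, beside 4.85% of all tested genes that rose. AIP1, also called HAI2, had 8.92 FPKM in mbd124 and 0.356 FPKM in WT (log2 change 4.65, SE 0.30). SAG113, also called HAI1, had 21.7 FPKM in mbd124 and 5.11 FPKM in WT (2.08). ABI1 had 76.8 FPKM in mbd124 and 30.6 FPKM in WT (1.33), and HAB1 a log2 change of 0.66. Of 8 tested genes of abscisic acid synthesis and breakdown 2 rose and 3 fell. NCED3, the main synthesis enzyme under drought, had 20.7 FPKM in mbd124 and 2.82 FPKM in WT (2.87, SE 0.16), and the breakdown enzyme CYP707A2 rose too (1.53). ZEP, an early synthesis enzyme, had a log2 change of -0.56 (adjusted p of 0.00373 in the authors' deposited table from Cuffdiff), and the breakdown enzymes CYP707A1 (-0.46, adjusted p of 0.0322 in that deposited table) and CYP707A3 (-0.51, adjusted p of 0.00742 in that deposited table) fell as well. The receptors did not move in 1 direction: PYL4 (-1.32), PYL5 (-1.47) and PYL1 (-0.77) fell, whereas PYL7 rose (0.63) and PYL9 rose (0.49, adjusted p of 0.0138 in the authors' deposited table from Cuffdiff). PYL4 had 57.6 FPKM in mbd124 and 144 FPKM in WT. Among 9 tested output genes of the pathway, 3 rose and none fell. RD29A, a classic dehydration gene, had 75.3 FPKM in mbd124 and 30.7 FPKM in WT. COR47, ERD10 and RD22 had log2 changes of -0.30, 0.02 and -0.03 and were not called.

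HD-ZIP factors include abscisic acid and shade regulators, and 10 of 29 tested members rose (34.5%) while 3 fell. ATHB-6, a regulator of abscisic acid response, had 377 FPKM in mbd124 and 146 FPKM in WT (log2 change 1.37, SE 0.16). The shade factors HAT4 (1.60) and ATHB-4 (2.03) rose too. HAT1 fell to 18.6 FPKM in mbd124, against 64.8 FPKM in WT. NAC factors, many of them linked to stress and senescence, had 10 rises and 1 fall among 71 tested members. NAC019 had 10.9 FPKM in mbd124 and 2.27 FPKM in WT (2.27). PUB19, a U-box ubiquitin ligase that dampens abscisic acid and drought responses, had 20.1 FPKM in mbd124 and 1.31 FPKM in WT (3.94, SE 0.19).

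The cold genes changed in both directions, among the regulators as well. CBF factors switch on cold-regulated genes. DREB1A (CBF3) had 6.78 FPKM in mbd124 and 0.496 FPKM in WT (log2 change 3.77, SE 0.34), and DREB1B (CBF1) had 6.96 FPKM in mbd124 and 1.86 FPKM in WT (1.90). DREB1C (CBF2), which lies beside them, fell to 8.43 FPKM in mbd124, against 14.7 FPKM in WT (-0.80). The related DREB1F, which is outside the cold list, fell at a low level, with 0.187 FPKM in mbd124 and 1.12 FPKM in WT (-2.58, adjusted p of 0.0268 in the authors' deposited table from Cuffdiff). DREB1A, DREB1B and DREB1C are close in sequence, so reads may be shared between them. Of their targets, KIN2 had 776 FPKM in mbd124 and 1349 FPKM in WT (-0.80). KIN1 (-1.06) fell as well, as did COR15A (-0.63, adjusted p of 0.00441 in the authors' deposited table from Cuffdiff) and COR15B (-0.58, adjusted p of 0.0186 in the same deposited table). In all, 2 of 9 tested cold genes rose and 5 fell.

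ERF factors carry an AP2 DNA-binding domain and act in ethylene, stress and wound responses. Among 59 tested genes named ERF in the file or in RefSeq, 16 rose and 16 fell, 54.2% of the family beside 11.3% of all tested genes. ERF053, a drought-related member, showed the largest rise of any called gene listed above 0 in both genotypes, with 14.9 FPKM in mbd124 and 0.261 FPKM in WT (log2 change 5.84, SE 0.42). ERF054 had 14.6 FPKM in mbd124 and 0.770 FPKM in WT (4.24), and ERF061 had 13.2 FPKM in mbd124 and 0.864 FPKM in WT (3.93). These members were nearly silent in WT. Members that fell included some well expressed in WT. ERF012 had 3.44 FPKM in mbd124 and 58.3 FPKM in WT (-4.08, SE 0.20). ERF107 had 49.2 FPKM in mbd124 and 285 FPKM in WT (-2.54), and ERF104, an ethylene-response factor of the immune response, had 23.4 FPKM in mbd124 and 149 FPKM in WT (-2.67). Ethylene synthesis genes of the ACC synthase class fell too: 4 of 8 tested synthesis genes were lower and none higher. ACS11 had 1.58 FPKM in mbd124 and 5.37 FPKM in WT. None of the 12 tested ethylene receptor and signalling genes was called by Cuffdiff (2 higher and 0 lower at an unadjusted p under 0.05).

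Jasmonate is the hormone of wounding and of defence against insects and necrotrophs, and JAZ proteins repress its targets and are themselves induced by it. Of 12 tested JAZ genes 4 fell and none rose (6 and 0 at an unadjusted p under 0.05). TIFY 5B (JAZ7) had 0.761 FPKM in mbd124 and 10.7 FPKM in WT (log2 change -3.81, SE 0.39). JAZ9 had 37.6 FPKM in mbd124 and 104 FPKM in WT (-1.47). Of 8 tested jasmonate factors and outputs 4 fell and none rose (5 and 0 at an unadjusted p under 0.05). ERF094 (ORA59), the factor that joins jasmonate and ethylene signals, had 1.82 FPKM in mbd124 and 12.2 FPKM in WT. VSP2, a storage protein marker of jasmonate response, had 498 FPKM in mbd124 and 872 FPKM in WT. Of 15 tested genes of jasmonate synthesis and breakdown 2 rose and 6 fell (3 and 6 at an unadjusted p under 0.05). Their levels summed to 768 FPKM in mbd124 and 1239 FPKM in WT. Among the lipoxygenases that start the synthesis, LOX2 fell to 198 FPKM in mbd124, against 499 FPKM in WT. LOX4 went the opposite way and rose to 20.5 FPKM in mbd124, against 4.84 FPKM in WT.

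Salicylate genes, which act against biotrophic pathogens, changed in both directions. Of 5 tested output genes 1 rose and 2 fell, with summed levels of 47.4 FPKM in mbd124 and 116 FPKM in WT. WRKY70, described below, is 1 of these 5 and had the lowest log2 change (-2.65). Its own fall in FPKM was larger than that of the sum, so the sum does not describe the other outputs. PR1, the standard output gene, had 18.9 FPKM in mbd124 and 8.85 FPKM in WT (log2 change 1.09), whereas the other standard outputs BGL2 (PR2) and PR5 had log2 changes of -0.33 and -0.29 and were not called. Of 14 tested synthesis and signalling genes 1 rose and 3 fell. Rapidly induced zinc finger repressors of the ZAT and AZF group had 4 falls and 1 rise among 11 tested members. ZAT12 fell to 6.34 FPKM in mbd124, against 31.7 FPKM in WT, and ZAT11 rose to 7.87 FPKM in mbd124, against 2.47 FPKM in WT. Calmodulin-like calcium sensors also went both ways, with 6 of 35 higher and 7 lower. CML38, induced by wounding and low oxygen, had 20.4 FPKM in mbd124 and 116 FPKM in WT.

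WRKY factors are regulators of defence and senescence that bind W-boxes in promoters, often those of other WRKY genes. Of 62 tested WRKY genes 15 rose (24.2%) and 5 fell (8.06%). WRKY53, a promoter of leaf senescence, had 55.2 FPKM in mbd124 and 5.51 FPKM in WT (log2 change 3.32, SE 0.35). WRKY30 had 3.77 FPKM in mbd124 and 0.322 FPKM in WT (3.55, SE 0.44). WRKY33, needed for camalexin synthesis, had 107 FPKM in mbd124 and 44.6 FPKM in WT (1.26). WRKY70, a node between salicylate and jasmonate, went the opposite way with 13.9 FPKM in mbd124 and 87.4 FPKM in WT (-2.65, SE 0.15), as did WRKY18 (-2.27). Cysteine-rich receptor kinases (CRK), many of them induced by pathogens, had 11 rises and 3 falls among 38 tested members. CRK11 had 32.2 FPKM in mbd124 and 11.7 FPKM in WT (1.46).

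Promoter stretches of 250 bases before the RefSeq start held the W-box TTGACC, on either strand, at 17.5% of genes that rose, 11.4% of genes that fell and 12.3% of all tested nuclear protein-coding genes. The variant TTGACT was found at 27.0% of genes that rose, 17.7% of genes that fell and 18.9% of all. At least 1 of these motifs lay before 395 of 999 genes that rose (39.5%), 359 of 1339 that fell (26.8%) and 28.4% of all. Among the families above it lay before 9 of 15 WRKY genes that rose, 7 of 11 CRK genes that rose, 6 of 16 ERF-named genes that rose, 3 of 10 HD-ZIP genes that rose, 7 of 27 SAUR genes that rose (25.9%) and 1 of 10 NAC genes that rose. It lay before 1 of 17 arabinogalactan genes that fell and 1 of 8 XTH genes that fell. Among genes that rose, the share thus ran from 1 of 10 NAC genes to 7 of 11 CRK genes, with few genes per family. That of SAUR genes (25.9%) lay near the 28.4% of all tested genes. The stretches of 4 genes that rose and hold a TTGACC match are printed to show the letters counted, chosen after their values were seen, with capitals as before.
WRKY30 (chr5:8154711-8154960, minus strand): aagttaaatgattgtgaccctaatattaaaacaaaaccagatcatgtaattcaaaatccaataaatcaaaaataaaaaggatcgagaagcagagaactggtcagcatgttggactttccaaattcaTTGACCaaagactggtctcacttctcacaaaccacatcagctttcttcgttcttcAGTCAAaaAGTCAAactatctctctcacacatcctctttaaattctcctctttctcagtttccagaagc
WRKY53 (chr4:12393983-12394232, minus strand): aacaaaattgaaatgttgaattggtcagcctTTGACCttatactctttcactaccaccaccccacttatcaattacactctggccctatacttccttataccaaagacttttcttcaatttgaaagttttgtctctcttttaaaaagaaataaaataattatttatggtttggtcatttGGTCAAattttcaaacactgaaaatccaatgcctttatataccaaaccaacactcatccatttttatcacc
UGT74E1 (chr1:1702750-1702999, minus strand): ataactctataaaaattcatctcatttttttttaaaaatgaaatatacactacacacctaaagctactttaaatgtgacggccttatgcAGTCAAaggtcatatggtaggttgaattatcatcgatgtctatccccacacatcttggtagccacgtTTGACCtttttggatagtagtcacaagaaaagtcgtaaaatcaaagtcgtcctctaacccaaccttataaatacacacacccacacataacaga
AIP1 (chr1:2282829-2283078, minus strand): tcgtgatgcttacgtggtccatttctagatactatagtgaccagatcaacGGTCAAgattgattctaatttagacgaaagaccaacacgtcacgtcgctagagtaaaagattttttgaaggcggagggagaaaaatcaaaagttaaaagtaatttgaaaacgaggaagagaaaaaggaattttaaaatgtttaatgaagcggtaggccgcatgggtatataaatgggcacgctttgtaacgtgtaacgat
WRKY30 held 3 matches, WRKY53 and UGT74E1 held 2 each, and AIP1 held 1. UGT74E1, a glycosyltransferase gene, had 34.6 FPKM in mbd124 and 2.51 FPKM in WT. A match is a description of letters and not a binding site. Several other motifs were counted in the same stretches. The site II element TGGGCC, common before housekeeping genes, was found at 6.91% of genes that rose and 8.66% of genes that fell, against 16.1% of all. The heat shock element GAANNTTC was found at 12.4% of genes that rose, 9.93% of genes that fell and 9.40% of all, and at 19.0% of genes that rose at least 2-fold and 12.1% of those that fell at least 2-fold. The abscisic acid element ACGTGNC was found at 10.4% of genes that rose, 9.71% of genes that fell and 9.45% of all, and the G-box CACGTG at 8.41%, 8.22% and 7.31% in the same order. The evening element AATATCT was found at 10.4% of genes that rose, 13.0% of genes that fell and 10.2% of all. The motifs searched were 14 in number, and a motif can overlap another, as the G-box does with the abscisic acid element.

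**Figure D3:**
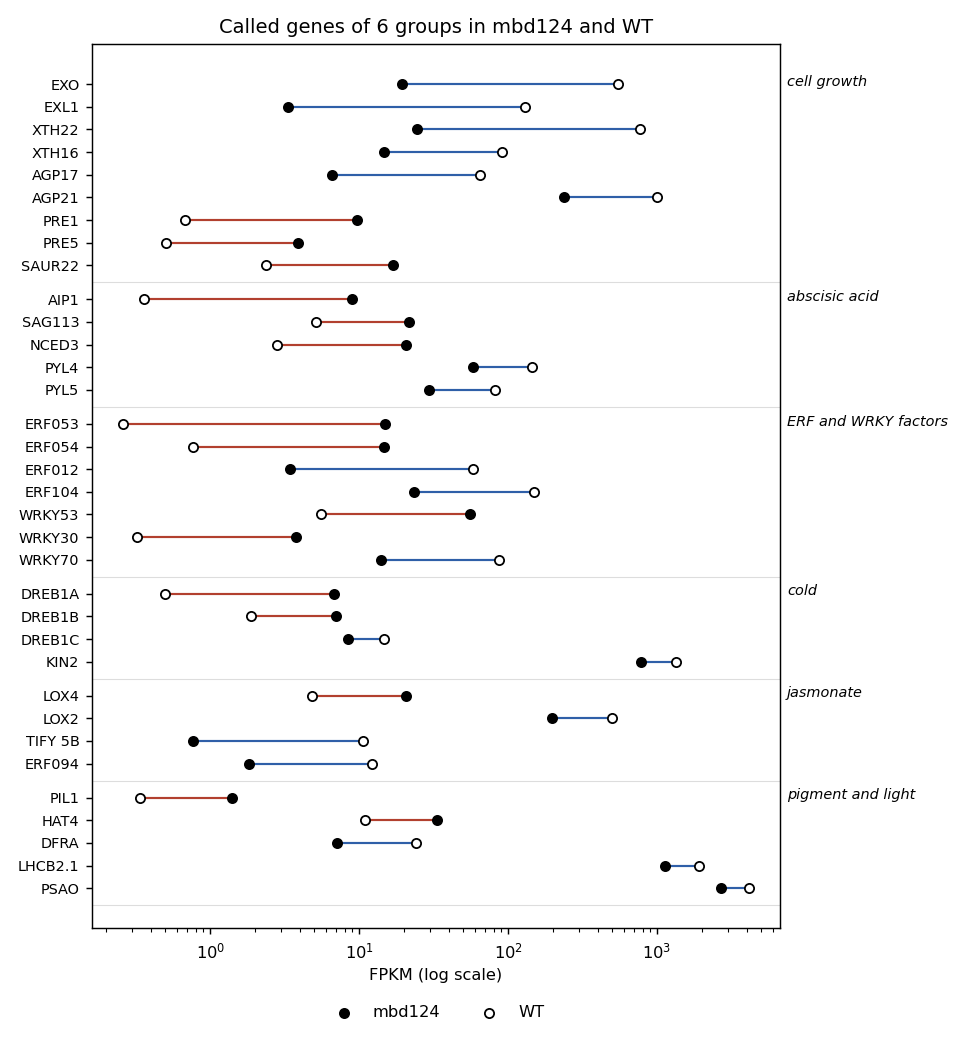
Filled circles give the FPKM in mbd124 and open circles the FPKM in WT for 34 called genes of 6 groups, on a log axis, joined by red lines where mbd124 is higher and by blue lines where it is lower. Within the cell growth group EXO, EXL1 and XTH22 lie far below their WT level while PRE1, PRE5 and SAUR22 lie above theirs, and in the cold group DREB1A and DREB1B lie above their WT level while DREB1C and KIN2 lie below theirs.

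Of the cytokinin and gibberellin genes tested, a few rose and none was called lower by Cuffdiff (0 lower at an unadjusted p under 0.05). Over all tested genes 4.85% rose and 6.42% fell. Lists this short cannot set an absence of falls apart from that share. Of 9 tested type-A response regulators 2 rose. ARR7, a type-A response regulator that cytokinin induces, had 32.2 FPKM in mbd124 and 5.98 FPKM in WT (log2 change 2.43). ARR15 had 1.33 FPKM in mbd124 and 0.353 FPKM in WT (1.92, adjusted p of 0.0497 in the authors' deposited table from Cuffdiff), a call that was lost on centring. ARR5, ARR6 and ARR9 had log2 changes of 0.04, 0.12 and 0.02 and were not called. Of 7 tested genes of gibberellin metabolism 1 rose and of 8 of its signalling genes 2 rose. GA2OX6, which inactivates gibberellin, had 25.8 FPKM in mbd124 and 5.57 FPKM in WT (2.21). The receptor GID1B (0.80) and the repressor RGL1 (0.62, adjusted p of 0.00307 in the authors' deposited table from Cuffdiff) rose as well. Light and shade regulators went both ways, with 2 of 8 tested genes higher and 2 lower (2 and 4 at an unadjusted p under 0.05). In this list 5 genes had a log2 change below 0. PIL1, a marker of shade response and the largest rise of the list, had 1.40 FPKM in mbd124 and 0.339 FPKM in WT (2.04, adjusted p of 0.00163 in the authors' deposited table from Cuffdiff).

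Flavonoid and anthocyanin synthesis makes the red and ultraviolet-absorbing pigments, and 10 of 15 tested genes fell while none rose (12 and 0 at an unadjusted p under 0.05). Summed over the 15 genes, the level was 156 FPKM in mbd124 and 288 FPKM in WT. DFRA, the first enzyme committed to anthocyanin, had 7.04 FPKM in mbd124 and 24.1 FPKM in WT (-1.78, SE 0.16). LDOX, the next step, had 4.05 FPKM in mbd124 and 13.2 FPKM in WT (-1.71). MYB75 (PAP1), the factor that drives these genes, had 1.25 FPKM in mbd124 and 4.17 FPKM in WT (-1.74). CHS, the entry enzyme, had 85.0 FPKM in mbd124 and 131 FPKM in WT (adjusted p of 0.0163 in the authors' deposited table from Cuffdiff). Early and late steps were both among the genes that fell. The 4 entry enzymes of the phenylpropanoid pathway upstream of them had none called by Cuffdiff (0 at an unadjusted p under 0.05).

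The chlorophyll-binding antenna proteins of the photosystems had 5 falls and no rise among 20 tested genes (7 and 0 at an unadjusted p under 0.05). LHCB2.4 had 415 FPKM in mbd124 and 847 FPKM in WT (log2 change -1.03). LHCB2.1 had 1130.1 FPKM in mbd124 and 1927 FPKM in WT (-0.77, adjusted p of 0.00236 in the authors' deposited table from Cuffdiff). PSAO, a photosystem I subunit, showed the largest drop in FPKM of any called gene, with 2694 FPKM in mbd124 and 4126 FPKM in WT (-0.62, adjusted p of 0.0334 in the same deposited table). The near-identical copies of LHCB1 are uncertain, since LHCB1.3 is marked as not testable and listed at 0 FPKM in WT. At the opposite end, the largest gains in FPKM among called genes were at DRMH1, a dormancy-associated gene, with 1182 FPKM in mbd124 and 806 FPKM in WT (adjusted p of 0.0213 in the authors' deposited table from Cuffdiff), at ABCG36, a pathogen resistance transporter, with 589 FPKM in mbd124 and 329 FPKM in WT (adjusted p of 0.00503 in that deposited table), and at ASN1, the asparagine synthetase induced in darkness, with 586 FPKM in mbd124 and 344 FPKM in WT.

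Glucosinolates are sulphur-rich defence compounds of the cabbage family. Of 10 tested genes for the aliphatic class 4 fell and none rose (6 and 0 at an unadjusted p under 0.05), and of 9 for the indolic class and camalexin 3 rose and none fell (4 and 0). CYP79F1, which starts the aliphatic core, had 2.03 FPKM in mbd124 and 7.82 FPKM in WT (log2 change -1.95). The indolic regulators MYB34 and MYB51 had 30.4 and 40.4 FPKM in mbd124, against 18.0 and 24.5 FPKM in WT. Iron genes had 4 rises and no fall among 15 tested members, and the genes called included the iron store FER1 (0.48, adjusted p of 0.0388 in the authors' deposited table from Cuffdiff) and the nicotianamine synthase NAS4 (0.87), while the uptake transporter IRT1 was not called (-0.57). Of 8 tested genes of sulphur assimilation and starvation 1 rose and 3 fell (1 and 4 at an unadjusted p under 0.05). The starvation genes LSU1 (-0.80) and LSU2 (-1.02) were among those that fell. Phosphate starvation genes had 3 falls among 9 and no rise (3 and 0 at an unadjusted p under 0.05), with MGD3, a galactolipid synthase, at 18.9 FPKM in mbd124 and 46.1 FPKM in WT. A list of heat shock factors and chaperones had 8 falls and 1 rise among 21 tested genes. The family of heat shock factors alone was split, with 3 of 19 tested members higher and 3 lower (7 and 4 at an unadjusted p under 0.05). HSFA2, which sustains heat tolerance, had 1.23 FPKM in mbd124 and 3.49 FPKM in WT.

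Of 15 tested floral repressors 1 rose, 3 fell and 11 were not called (1 higher and 4 lower at an unadjusted p under 0.05). Of 9 tested floral promoters 0 rose and 1 fell (0 and 3 at an unadjusted p under 0.05). Flowering regulators of the RAV group fell: RAV1 had 12.4 FPKM in mbd124 and 90.0 FPKM in WT (log2 change -2.86, SE 0.15), and TEM1 had 18.6 FPKM in mbd124 and 83.5 FPKM in WT (-2.17). FLC, the repressor removed by cold winters, had 3.50 FPKM in mbd124 and 1.42 FPKM in WT (1.31, adjusted p of 0.00626 in the authors' deposited table from Cuffdiff). Of 20 tested clock genes 1 rose (5%) and 2 fell (10%), beside 4.85% and 6.42% of all tested genes. A list this short cannot set these counts apart from those shares. At an unadjusted p under 0.05 the counts were 3 and 9, and 15 clock genes had a log2 change below 0. None of 16 genes of DNA methylation and silencing and none of 12 histone deacetylase genes was called by Cuffdiff (0 higher and 2 lower, and 0 higher and 1 lower, at an unadjusted p under 0.05). HDA6 had 17.2 FPKM in mbd124 and 17.3 FPKM in WT. None of 6 genes chosen for constant expression was called either (0 at an unadjusted p under 0.05).

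Marker lists show which tissues the samples held. Root markers were detected, with 1 rise and 1 fall among 12 tested genes and summed levels of 228 FPKM in mbd124 and 205 FPKM in WT. Green leaf markers had 1 fall, LHCB2.1, among 11 tested genes, and summed to 20227 FPKM in mbd124 and 25747 FPKM in WT. Stomatal lineage markers had 1 rise among 6, the guard cell factor FAMA (0.74). Of 6 floral markers only PI and SEP3 were tested and neither was called (0 at an unadjusted p under 0.05), and of 7 seed storage and maturation markers only CRA1 was tested, with 2.15 FPKM in mbd124 and 0.409 FPKM in WT. The part of tissue proportions in the falls of antenna genes was not tested.

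The share of genes called depended on the wild-type level. Tested genes were split into 10 equal groups by their WT value. In the lowest group, up to 1.38 FPKM, 5.13% rose and 0.570% fell. In the highest group, from 66.7 FPKM, 2.47% rose and 14.1% fell. The median WT level was 8.30 FPKM for genes that rose and 24.5 FPKM for genes that fell, against 11.1 FPKM over all tested genes. WT level enters both the split and the change, so part of this trend is built in. Split by the mean of both genotypes, the highest group had 3.85% higher and 11.5% lower, and the lowest had 2.00% higher and 1.24% lower. Falls were thus most frequent in the highest group in both splits, while rises in the lowest group were above the share of all tested genes only in the split by WT level. In the split by the mean, the median SE was 0.43 in the lowest group and 0.16 in the highest. The median log2 change of all genes in these groups was 0.03 and -0.08. The part of these differences in the share of calls was not tested.

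Called genes had few exons. By RefSeq, 14.5% of tested nuclear protein-coding genes have a single exon, against 27.9% of genes that rose and 30.9% of genes that fell. Among changes of at least 2-fold the shares were 39.5% of genes that rose and 44.2% of genes that fell. With 1 exon, 9.53% of genes rose and 14.1% fell, and with over 10 exons 2.09% rose and 2.45% fell. Splitting by level as well, single-exon genes were called lower more often than others in each of the 10 groups. In the highest group 105 of 236 single-exon genes fell (44.5%), beside 191 of 1847 genes with several exons (10.3%). EXO, EXL1, ERF053, ERF012, SAUR20, SAUR22 and SAUR78 have a single exon. The median gene length was 1.71 kb among genes that rose at least 2-fold and 1.63 kb among those that fell at least 2-fold, against 2.36 kb among all tested genes, and the part of gene length in the calls was not tested.

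**Figure D4:**
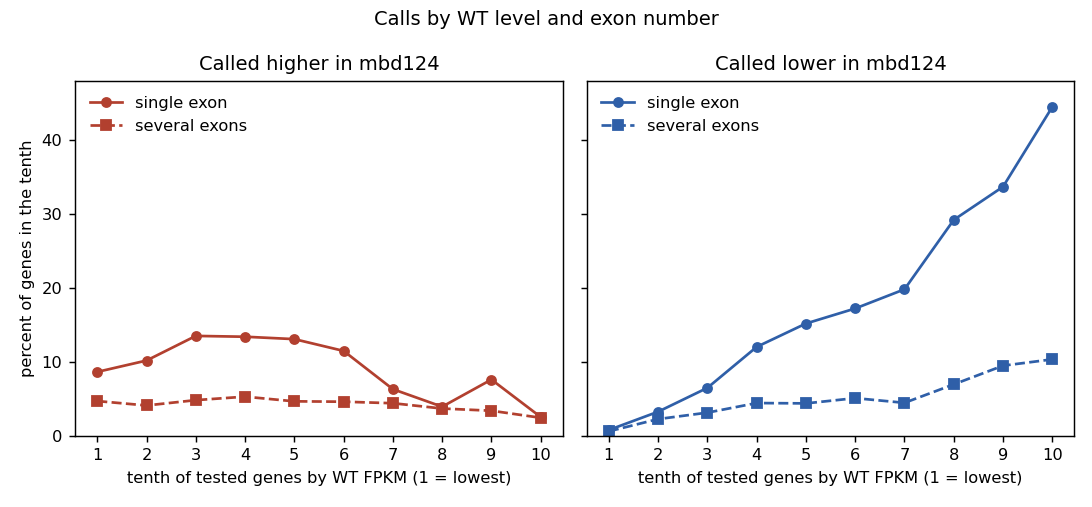
Points give the percent of nuclear protein-coding genes called higher (left panel) or lower (right panel) in mbd124 in each of 10 equal groups of tested genes by WT FPKM, with solid lines for genes with a single exon and dashed lines for genes with several exons. The share of single-exon genes that fell climbs from 0.786% in the lowest group to 44.5% in the highest, and that of genes with several exons from 0.606% to 10.3%.

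Called genes were spread over the genome. On the 5 nuclear chromosomes the share that rose lay between 4.47% and 5.48% and the share that fell between 6.26% and 6.79%. In windows of 500 kb with at least 30% of bases in transposable elements, which lie mostly around the centromeres, 3.92% of 1172 tested genes rose and 6.83% fell, beside 4.88% and 6.42% in other windows. With at least 40% of bases in transposable elements 2.88% rose and 7.14% fell. The organelle genes that were called were all higher. Of 21 tested mitochondrial genes 3 rose and of 51 tested plastid genes 6 rose, and none fell (0 and 1 lower at an unadjusted p under 0.05). The median log2 change was 0.76 over the tested mitochondrial genes and 0.01 over the tested plastid genes, of which 26 lay above 0 and 25 below it. Of the 9 called genes 6 are ribosomal RNA genes (RRN18 and RRN26 of the mitochondrion, and both copies of RRN16S and RRN23S of the plastid), which do not code for protein. RRN26 had 314 FPKM in mbd124 and 190.3 FPKM in WT (adjusted p of 0.0372 in the authors' deposited table from Cuffdiff), and RRN18 had 103 FPKM in mbd124 and 47.3 FPKM in WT. The part of RNA selection in these and other values was not tested. Of the others, the plastid photosystem II gene PSBC had 37.4 FPKM in mbd124 and 13.9 FPKM in WT.

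Runs of neighbouring tested genes called in 1 direction numbered 80 for rises, with 174 genes, and 142 for falls, with 313 genes. They held 17.2% of the nuclear genes that rose and 23.2% of those that fell. Most runs were pairs, 71 of the 80 and 119 of the 142. The longest run of rises was CRK9 to CRK14 on chromosome 4 (chr4:12134973-12156881 in the files' TAIR10 coordinates), 6 genes with log2 changes between 0.81 and 1.62. CRK10 had 75.5 FPKM in mbd124 and 41.7 FPKM in WT. The longest run of falls held 5 genes of Toll-interleukin receptor (TIR) immune proteins, AT1G72890 to TIR (chr1:27429916-27440464), with changes between -1.29 and -0.52. The 6 runs of 4 genes were the SAUR genes SAUR62 to AT1G29460 (chr1:10302585-10308246, rises), WRKY28 with the purine permeases PUP8, PUP7 and PUP22 (rises), 4 amino acid transporter genes of the UMAMIT family (UMAMIT44 to UMAMIT47, falls), UGT73C3 to UGT73C5 with the RNA gene AT2G36792 (falls), TMK1 to AT1G66190 (falls) and CDSP32, SMT3, PETE1 and HMGB9 (falls). Several of these runs hold copies of 1 family, whereas others, such as CDSP32 to HMGB9, hold unrelated genes, and values of near-identical copies or overlapping genes are uncertain.

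**Figure D5:**
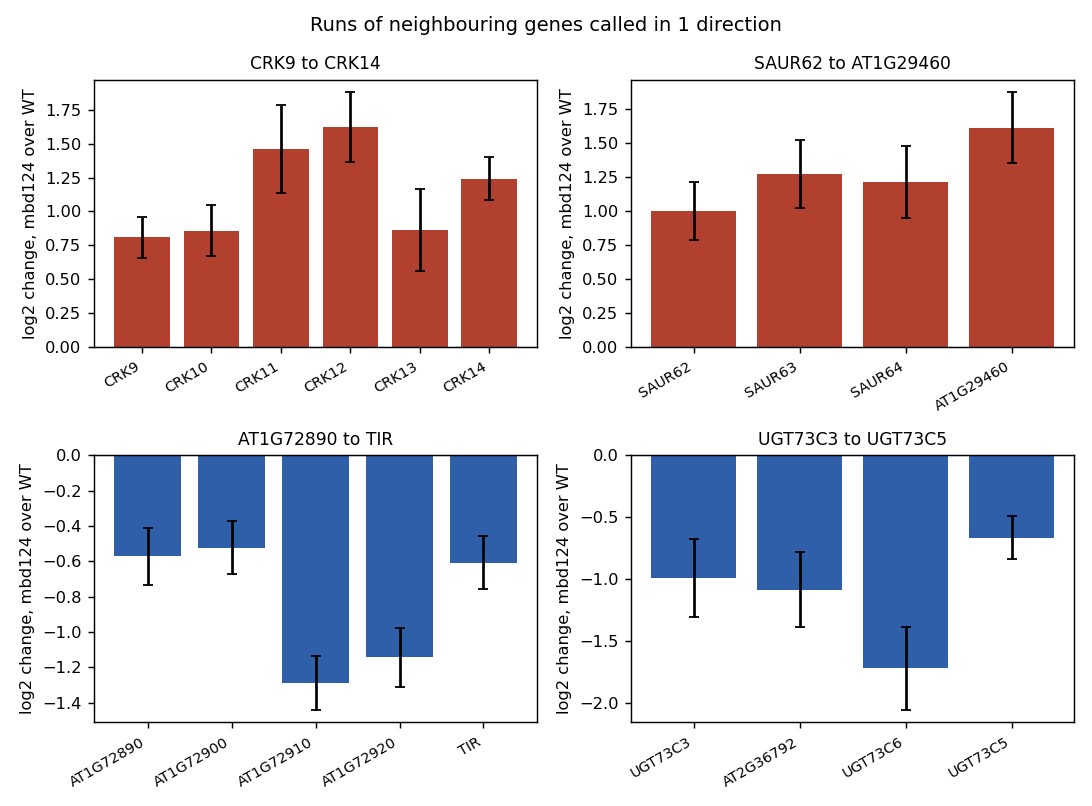
Bars give the log2 change of mbd124 over WT, with error bars of 1 derived SE, for genes in chromosome order in 4 runs of neighbours called in 1 direction. All 6 CRK genes and all 4 SAUR genes lie above 0, and all 5 TIR genes and the 4 genes around UGT73C6 lie below 0.

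Genes near the mutated loci were examined because linked sequence can come with a mutant allele. Within 100 kb of MBD1 11 of 50 tested genes were called (7 higher, 4 lower), which is 22.0% beside 11.3% of all tested genes. Within 100 kb of MBD4 8 of 60 were called, and near MBD2 1 of 10. Over 1000 kb on each side the share was 13.6% at MBD1, 13.5% at MBD4 and 9.46% at MBD2. The CRK9 to CRK14 run begins 186 kb from MBD1 and WRKY53 lies 444 kb from it. Of the pathway genes named above, LDOX (log2 change -1.71) lies within 100 kb of MBD1 and GID1B (0.80) within 100 kb of MBD4. The part of linked sequence in the changes of all these genes was not tested.

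H3ac was measured in WT, sant1234-null and hda6 seedlings but not in mbd124, so it describes the genes and not this mutant. In WT the median gene value was 16.8 RPKM (reads scaled by length and library size) at nuclear protein-coding genes that rose in mbd124, 15.9 RPKM at those that fell and 12.7 RPKM at all tested ones. A peak called higher in sant1234-null than in WT, at an FDR under 0.05 in the authors' DiffBind table, overlapped 13.3% of the genes that rose in mbd124, 11.7% of those that fell and 9.98% of all tested nuclear genes. Among changes of at least 2-fold it overlapped 18.7% of the genes that rose and 11.9% of those that fell. A peak called lower in hda6 than in WT overlapped 22.9% of the genes that rose, 18.9% of those that fell and 27.2% of all. Among changes of at least 2-fold it overlapped 13.3% of the genes that rose and 14.8% of those that fell. A peak called higher in hda6 than in WT overlapped 3.17% of the genes that rose, 2.67% of those that fell and 2.18% of all. For changes of at least 2-fold the shares were 5% of rises and 2.39% of falls. A peak called lower in sant1234-null than in WT overlapped 14.6% of the genes that rose, 16.4% of those that fell and 15.8% of all. For changes of at least 2-fold these shares were 7.67% and 17.7%.

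The other mutant comparisons use the same WT samples, so their values are given side by side without a measure of likeness. The share of tested genes called was 6.14% in hhp1, 15.3% in sant1234-null and 12.0% in hda6. EXO had a log2 change of -4.81 in mbd124, -3.79 in sant1234-null, -1.91 in hda6 and -0.83 in hhp1, and was called in each table. ERF053 changed by 5.84 in mbd124 and by 3.76 in sant1234-null, and was not marked as tested in the hda6 and hhp1 tables. WRKY53 changed by 3.32 in mbd124, 2.62 in sant1234-null, 3.12 in hda6 and 1.94 in hhp1, and was called in each. PUB19 rose by 3.94 in mbd124 and 1.65 in sant1234-null and was not called in hda6 (-0.21) or hhp1 (-0.19). DFRA fell by 1.78 in mbd124 and 0.84 in hda6, was not called in sant1234-null (0.38) and rose by 1.24 in hhp1. Whether these changes differ between mutants was not tested.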

How the data were processed

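The labels place 3 samples in mbd124 and 3 in WT, by genotype and assay. The submitters' processing notes name, without saying what each was used for, Cuffdiff, Cufflinks (2.2.1), TopHat2 (2.0.12), DiffBind, MACS2 and Bowtie2 (2.4.1) as well as the build TAIR10. No source used here states settings, strand use or how shared reads were counted. The deposited gene table holds 1 FPKM per genotype, a p-value and a q-value (the adjusted p), and per the file headers its columns are those of Cuffdiff. Recomputation gave the q-value as the Benjamini-Hochberg adjustment over tested genes (largest difference 5.27e-07). The deposited test statistic, a score, served only to derive standard errors at the smallest p. The deposited H3ac gene tables hold a raw read count and the authors' RPKM without input subtraction, and the deposited peak tables hold a log2 fold and an FDR per the file headers. Unused columns of per-sample values: 0.

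A gene was called if it was marked as tested and its adjusted p was under 0.05. Log2 changes were recomputed as mbd124 over WT with no pseudocount, and genes listed at 0 get no fold. Standard errors are the log2 change over the normal quantile of its p-value, and the calling steps were tested on simulated data. Names, products, exon numbers and promoter sequences came from RefSeq TAIR10.1, whose gene coordinates were identical to the files' for 32531 of 32547 genes. Of the listed genes, 32538 matched a RefSeq locus, and 23 symbols stored as dates were replaced. Runs, windows and families were counted with pandas 2.3.3 and scipy 1.17.1. The genes described and the 46 lists and 45 families were chosen with earlier results of these data known. Named genes were the 20 largest called changes and 10 largest FPKM differences in each direction, up to 4 called members per list or family and direction, the mutated loci, the largest change in each of 10 WT level groups, the longest runs and called genes listed at 0. Members that were not called are named for contrast, chosen after their values were seen. Alternatives were other thresholds, filters, pseudocounts, centring, windows and splits.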

Additional observations from a re-analysis of the deposited data

Results flagged for a closer look

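The libraries of mbd124 and WT were also summarised over transposable elements, which the comparison of genes does not use. In the authors' deposited table for elements, 449 of 31189 were marked as tested. Of these, 14 were called higher in mbd124 than in WT and 20 lower, 7.57% of those tested, and 90 had an unadjusted p under 0.05. The result was flagged because it lies outside the gene table.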

How the results depend on the processing

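No paired analysis was possible because each genotype has a single pooled value in the table, and for the same reason leaving out each replicate in turn was not run. At an adjusted p under 0.01, 663 genes were higher and 959 lower in mbd124, and with an absolute log2 change of at least 1 added 307 and 419. Centred on the median of tested genes the counts were 974 and 1413, and over genes with at least 1 FPKM in either genotype 1028 and 1359. By the mean of both genotypes the lowest of 10 groups had 2.00% higher and 1.24% lower and the highest 3.85% and 11.5%, and windows with at least 40% of bases in transposable elements had 2.88% higher. The median log2 change over tested genes stayed between 0.0098 and 0.012 under the pseudocounts and the filter tried. Among 594 named genes none changed direction under a pseudocount of 0.1 or 1 or under centring, 141 moved by more than their standard error with a pseudocount of 1, and 8 were no longer called after centring. Low levels and unknown depth limit weakly expressed genes most.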
